A study of Mus musculus with 12 samples.

Results

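Genes of the TGF-beta signalling family were followed through mouse tongue organoids: the TGF-beta ligands Tgfb1, Tgfb2 and Tgfb3, the BMP ligands Bmp2, Bmp4 and Bmp7 with the secreted antagonist Fst, and the Id genes Id1, Id2 and Id3. These 10 genes were taken by symbol from a table of 55367 genes, and all 10 were among the 17076 genes that passed a filter on low counts. The study used organoids, self-renewing epithelial cultures from 2 sites of the posterior tongue: the circumvallate papilla, called CVP here, and the foliate papilla, called FoP. Lines labelled as knock-outs of Foxe1, a forkhead transcription factor, were set against lines labelled wild type. The CVP groups were Foxe1 knock-out organoids (clones 2.9 and 2.10, 4 libraries) and wild-type organoids (2 libraries). The FoP groups were Foxe1 knock-out organoids (clones 2.4 and 2.5, 4 libraries) and wild-type organoids (2 libraries). Each clone was sequenced in duplicate. The labels give no age or strain of the mice, and they name genetic modification as the treatment of the knock-outs without the means. They name no clone for wild type, so the genotype and the derivation of a clone cannot be told apart. Nothing says that duplicates came from separate cultures, so p-values measure only the spread between these libraries, part of which may be technical.

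TGF-beta and BMP ligands are secreted dimers that bind pairs of serine/threonine kinase receptors. Receptors for TGF-beta and activin phosphorylate Smad2 and Smad3, those for BMP phosphorylate Smad1, Smad5 and Smad9, and both kinds of Smad enter the nucleus with Smad4. Id genes are classical direct targets of BMP and Smad1/5. Their proteins are helix-loop-helix factors without a DNA-binding region that keep other factors of that class off DNA, and they are associated with the undifferentiated state in many epithelia. Follistatin, the product of Fst, binds activin tightly and some BMPs more weakly. In tongue epithelium, BMP signalling is known from the patterning of papillae and taste buds.

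Library totals were 59.3 to 73.6 M counts, and 21421 to 22602 genes had at least 1 count. Levels are given as CPM, a gene's counts relative to the library size after TMM scaling. A fold change is called where its p, adjusted over all 17076 genes in edgeR's quasi-likelihood test, is under 0.05. The Foxe1 transcript did not separate the genotypes. It lay at 22.7 and 23.7 CPM in CVP clone 2.9 and 20.0 and 22.4 CPM in FoP clone 2.4, and at 7.33 and 8.46 CPM in CVP clone 2.10 and 11.2 and 11.5 CPM in FoP clone 2.5, against 15.4 to 16.3 CPM in the wild-type libraries. The sources used here do not place the edit within the gene, so knock-out is used below as the labels give it. The 8 epithelial markers summed to 12822 to 15238 CPM in CVP knock-out libraries, against 9968 to 10464 CPM in CVP wild type, and to 11095 to 13956 CPM in FoP knock-out libraries, against 11536 to 11584 CPM in FoP wild type. Of the 8, 2 were called higher and 4 lower in CVP, and 1 higher and 1 lower in FoP. In CVP the basal keratin Krt14 rose (log2 fold change 1.37, adjusted p = 4.42e-05) and Krt13, a keratin of differentiated cells, fell (-3.20, adjusted p = 0.00959). The CVP mean of Krt5 was also higher in knock-out organoids (5919 against 3949 CPM in wild type). Those of Epcam (1087 against 1573 CPM), Krt18 (541 against 800), Trp63 (410 against 519), Cdh1 (1053 against 1133) and Krt8 (394 against 422) were lower. The fibroblast list (10 genes) summed to 265 to 424 CPM in CVP knock-out libraries, against 63.5 to 66.5 CPM in CVP wild type. It summed to 91.8 to 113 CPM in FoP knock-out libraries, against 77.1 to 98.8 CPM in FoP wild type. Of its 8 genes tested, Vim, Fbn1, Pdgfra and Pdgfrb rose and Dcn fell in CVP, and Fbn1 and Pdgfra rose and Dcn fell in FoP. Vim and Fbn1 made up most of the sum, Lum was at 0 in every library and Col3a1 had no more than 9 counts. The immune list (8 genes) summed to 10.3 to 18.1 CPM in CVP knock-out libraries, against 104 to 108 CPM in CVP wild type. It summed to 38.2 to 66.9 CPM in FoP knock-out libraries, against 65.6 to 69.5 CPM in FoP wild type. Of its 4 genes tested, Cd68, Lyz2 and H2-Ab1 fell in CVP and Cd68 and Lyz2 fell in FoP. Lyz2 was at 0 in every knock-out library, against 16.2 and 29.8 CPM in CVP wild type and 2.85 and 5.44 CPM in FoP wild type, and Ptprc was at 0 in all libraries. The endothelial list (5 genes) reached at most 3.64 CPM and the muscle list (5 genes) at most 1.17 CPM. The part these markers have in the results below was not tested, and in bulk RNA fewer cells of a type cannot be told apart from less RNA per cell.

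In knock-out CVP organoids, the antagonist Fst and the Id gene Id2 rose, and the ligands Tgfb2 and Tgfb3 fell. In knock-out FoP organoids, Fst rose, and Tgfb2, Id1 and Id3 fell. The BMP ligands Bmp2 and Bmp7 were within 0.14 of wild type on the log2 scale in both lines, and neither passed the test. In CVP, 4 of the 10 genes were called (2 higher, 2 lower), which is near the background of 46.4% of all tested genes, made up of 23.5% higher and 22.9% lower. In FoP, 4 of the 10 were called (1 higher, 3 lower), against 28.8% of all tested genes, of which 13.5% were higher and 15.3% lower. The median log2 fold change of the 10 genes was -0.36 in CVP and -0.09 in FoP, and that of all tested genes was 0.03 in CVP and 0.01 in FoP. All 4 knock-out libraries lay beyond both wild-type libraries for 6 of the 10 genes in CVP (2 above, 4 below), against 61.7% of all tested genes, and for 7 of the 10 in FoP (3 above, 4 below), against 49.7%. With duplicates summed so that each culture counts once, which leaves 2 residual degrees of freedom, 1 of the 10 stayed called in each line, Fst in CVP and Id1 in FoP. Over all genes the calls were then 3420 in CVP and 372 in FoP, against 7929 in CVP and 4921 in FoP with separate libraries. Without FoP wild-type duplicate 1 or 2, the FoP calls were 1 and 2 of the 10, and 2719 and 2668 over all genes, and without CVP wild-type duplicate 1 the CVP calls over all genes were 5238.

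**Figure D1:**
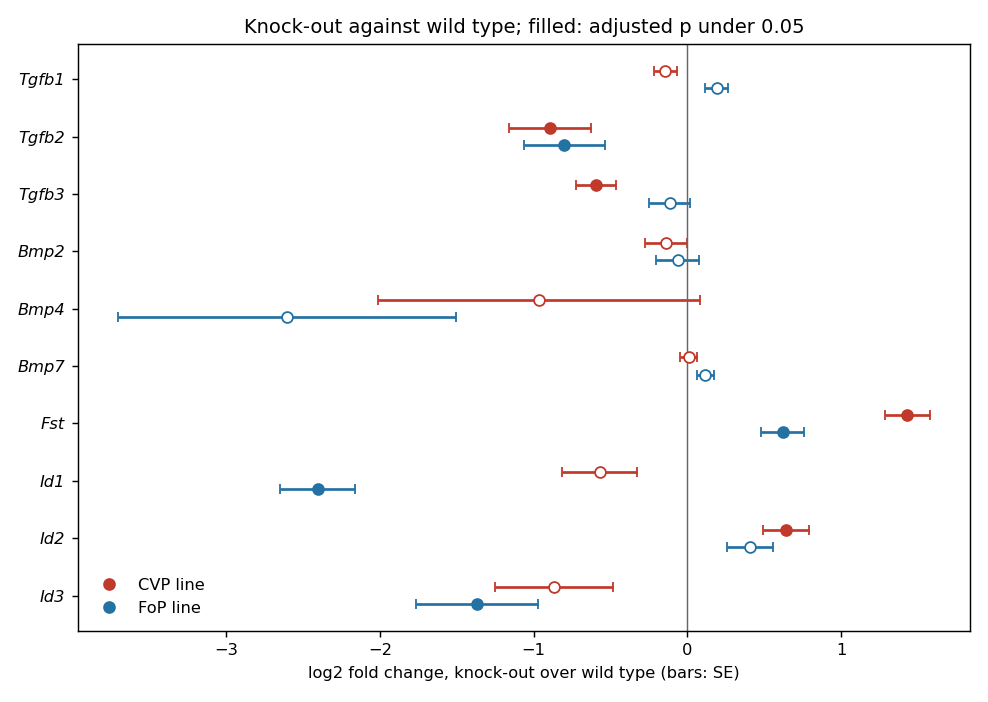
Log2 fold change of each gene, knock-out over wild type, in the CVP line (red) and the FoP line (blue), with bars for the SE; filled points passed an adjusted p of 0.05. Fst lies right of 0 and Tgfb2 left of 0 in both lines, and Id1 lies at -0.57 in CVP and at -2.41 in FoP.

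Per exon length, which allows genes to be compared with each other, the ligands differed widely in level. Bmp7 averaged 57.0 ± 3.84 CPM per kb over the 12 libraries (SD, which includes the difference between genotypes). Tgfb3 followed at 48.3 ± 8.66, Tgfb1 at 32.5 ± 2.82, Id2 at 18.4 ± 5.92 and Fst at 13.8 ± 5.38 CPM per kb. The lowest levels were those of Tgfb2 at 6.72 ± 2.40, Id1 at 3.33 ± 2.19, Bmp2 at 3.06 ± 0.471, Id3 at 0.524 ± 0.267 and Bmp4 at 0.159 ± 0.130 CPM per kb. In that order, Bmp7 and Tgfb3, Id2 and Fst, and Id1 and Bmp2 differed by less than the larger of their SDs. The order of the first pair depended on the group: Bmp7 was on average above Tgfb3 in knock-out organoids (59.9 ± 0.752 against 40.3 ± 6.03 CPM per kb in CVP, 55.6 ± 2.38 against 48.1 ± 5.94 in FoP), and the means were within their spread in wild type (59.6 ± 1.09 against 61.0 ± 2.53 CPM per kb in CVP, 51.3 ± 4.46 against 52.1 ± 1.02 in FoP). Bmp7 made up 92.7 to 95.7% of the summed CPM per kb of the 3 BMP ligands in every library, so Bmp2 and Bmp4 were minor transcripts in both genotypes.

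**Figure D2:**
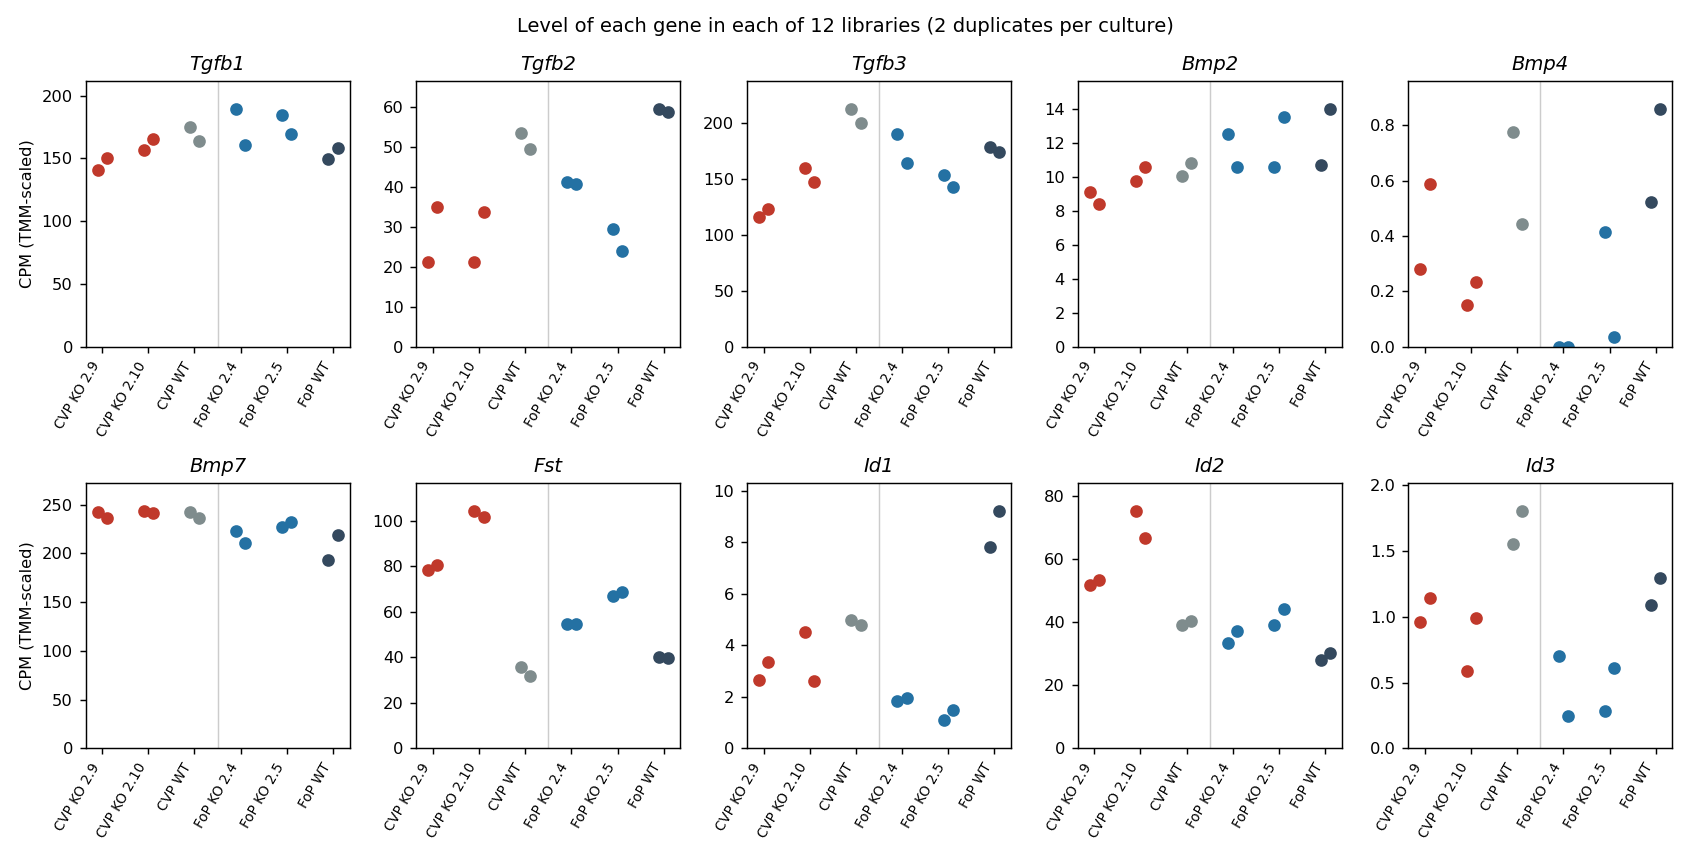
Level of each of the 10 genes in each of the 12 libraries, in TMM-scaled CPM on axes that start at 0, with the 2 duplicates of a culture side by side and knock-out cultures left of wild type in each line. Fst lies above wild type in every knock-out library, Tgfb2 below it, and Id1 of FoP knock-out libraries lies at 1.11 to 1.95 CPM, against 7.80 and 9.20 CPM in FoP wild type.

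Tgfb2 encodes TGF-beta 2, a ligand that needs the co-receptor betaglycan for strong binding, and lies at chr1:186622792-186705989 on the minus strand (GRCm38). In CVP knock-out libraries it stood at 21.2 and 35.0 CPM in clone 2.9 and at 21.2 and 33.6 CPM in clone 2.10, against 53.5 and 49.4 CPM in CVP wild type. In FoP knock-out libraries it stood at 41.3 and 40.6 CPM in clone 2.4 and at 29.5 and 24.0 CPM in clone 2.5, against 59.3 and 58.6 CPM in FoP wild type. Every knock-out library was lower than both wild-type libraries of its line, and in CVP the duplicates of a clone lay further apart than the clones did. The log2 fold change was -0.89 ± 0.27 (SE; adjusted p = 0.0210) in CVP and -0.80 ± 0.27 (adjusted p = 0.0495) in FoP, and the difference between the effects was 0.09 ± 0.38 (adjusted p = 0.906), within its error. The CVP call was lost in 5 of 18 alternatives, among them without wild-type duplicate 1 (adjusted p = 0.111) or duplicate 2 (0.0671), with a range of 0.00436 to 0.111. The FoP call was lost in 9 of 18 alternatives, with a range of 0.0180 to 0.185. These included the fit with no filter (adjusted p = 0.124), 1 line per fit (0.0595), the replicate block (0.0589) and summed duplicates (0.176). It was also lost without clone 2.5 duplicate 1 (adjusted p = 0.105) or duplicate 2 (0.0797) and without wild-type duplicate 1 (0.176) or duplicate 2 (0.166).

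The 250 bases before the Tgfb2 start site are shown because Tgfb2 alone was called lower in both lines among ligands of the 10 genes. In FoP the call was close to the threshold. The window is free of annotated exons of the gene. The sequence is RefSeq's on GRCm38.p6, chr1:186705990-186706239, minus strand, 5′ to 3′, with matches to the searched motifs in capitals.
Tgfb2: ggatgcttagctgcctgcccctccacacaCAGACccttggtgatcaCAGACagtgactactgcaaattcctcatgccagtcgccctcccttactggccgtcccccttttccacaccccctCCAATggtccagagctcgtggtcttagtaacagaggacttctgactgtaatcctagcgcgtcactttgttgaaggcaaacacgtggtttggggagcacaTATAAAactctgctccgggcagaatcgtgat
The following motifs were searched on both strands in windows of 250 bases: CAGAC (the Smad box), GGCGCC (a GC-rich Smad1/5 site), TGTTTAC (a forkhead core), TATAAA (the TATA box) and CCAAT (the CCAAT box); no 2 matches overlap in this window. The Tgfb2 window held CAGAC at 221 and 204 bases before the start site, CCAAT at 130 and TATAAA at 31, and no match to TGTTTAC or GGCGCC. Of 32851 RefSeq windows of that length, 42.2% held CAGAC, 33.8% CCAAT, 12.4% TATAAA, 9.59% GGCGCC and 3.17% TGTTTAC. Windows were found for 5 of the 10 genes (Tgfb1, Tgfb2, Bmp4, Id2 and Id3); those of Tgfb1 and Bmp4 held none of the 5 motifs, and TGTTTAC was in none of the 5 windows. A match is a description of letters and does not show binding.

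Tgfb3 encodes TGF-beta 3 and lies at chr12:86056745-86079041 on the minus strand (GRCm38). In CVP knock-out libraries it stood at 116 and 123 CPM in clone 2.9 and at 160 and 147 CPM in clone 2.10, against 212 and 200 CPM in CVP wild type, so all knock-out libraries were lower and clone 2.9 was the lowest. The log2 fold change in CVP was -0.60 ± 0.13 (adjusted p = 0.00313). FoP knock-out libraries held 190 and 164 CPM in clone 2.4 and 153 and 143 CPM in clone 2.5, against 179 and 174 CPM in FoP wild type, where the groups overlapped (-0.12 ± 0.13, adjusted p = 0.559). The difference between the effects in FoP and CVP was 0.48 ± 0.19 on the log2 scale with an adjusted p of 0.109, which became 0.0471 without CVP clone 2.10 duplicate 1 (range 9.85e-04 to 0.481 over 25 alternatives).

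Tgfb1 encodes TGF-beta 1, a form that epithelial and immune cells release in a latent complex, and lies at chr7:25687002-25705077 on the plus strand (GRCm38). CVP knock-out libraries held 141 and 151 CPM in clone 2.9 and 157 and 166 CPM in clone 2.10, against 175 and 164 CPM in CVP wild type. FoP knock-out libraries held 189 and 160 CPM in clone 2.4 and 185 and 169 CPM in clone 2.5, against 150 and 159 CPM in FoP wild type. The groups overlapped in CVP and were apart in FoP by less than 2 CPM, and neither effect passed the test (CVP -0.14 ± 0.07, adjusted p = 0.134; FoP 0.19 ± 0.08, adjusted p = 0.0774). Without FoP clone 2.4 duplicate 2 the FoP effect was called (adjusted p = 0.0333, range 0.0333 to 0.363 over 18 alternatives). The difference between the effects passed narrowly at 0.33 ± 0.11 (adjusted p = 0.0496); it was lost in 15 of 25 alternatives, with a range of 0.0155 to 0.295. Among these were the omissions of CVP wild-type duplicate 1 (adjusted p = 0.194) or 2 (0.0802) and of FoP wild-type duplicate 1 (0.190) or 2 (0.0978). Leaving out FoP clone 2.5 duplicate 1 (0.0815) or 2 (0.0515), FoP clone 2.4 duplicate 1 (0.0759), CVP clone 2.9 duplicate 1 (0.0763) or 2 (0.0706), or CVP clone 2.10 duplicate 1 (0.0600) also ended that call.

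As shares of the summed CPM per kb of the 3 TGF-beta ligands, Tgfb1 made up 40.4 ± 1.92% in CVP knock-out organoids (SD, n = 4), against 32.5 ± 0.0313% in CVP wild type (n = 2), and 39.4 ± 3.01% in FoP knock-out organoids, against 32.9 ± 1.28% in FoP wild type. Tgfb2 made up 6.36 ± 1.70% in CVP knock-out organoids, against 8.59 ± 0.110% in CVP wild type, and 6.53 ± 1.27% in FoP knock-out organoids, against 10.96 ± 0.111% in FoP wild type. Tgfb1 had a larger share and Tgfb2 a smaller one in every knock-out library than in the wild-type libraries of its line. Tgfb3 had the largest share of the 3 in all groups, at 53.2 ± 3.10% in CVP knock-out organoids, against 58.9 ± 0.141% in CVP wild type, and 54.1 ± 1.85% in FoP knock-out organoids, against 56.1 ± 1.17% in FoP wild type.

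Among the BMP ligands, Bmp7 (chr2:172868012-172940321, minus strand, GRCm38), whose product acts widely in epithelial and kidney development, did not pass the test in either line. CVP knock-out libraries held 242 and 237 CPM in clone 2.9 and 243 and 241 CPM in clone 2.10, against 243 and 236 CPM in CVP wild type. FoP knock-out libraries held 223 and 210 CPM in clone 2.4 and 227 and 233 CPM in clone 2.5, against 193 and 219 CPM in FoP wild type. The groups overlapped in both lines, and the log2 fold changes were 0.01 ± 0.06 (adjusted p = 0.920) in CVP and 0.12 ± 0.06 (adjusted p = 0.139) in FoP, the second becoming 0.21 (adjusted p = 0.0495, range 0.0495 to 0.801 over 18 alternatives) without FoP wild-type duplicate 2.

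Bmp2 (chr2:133552159-133562885, plus strand, GRCm38), a ligand known from bone and tooth formation, held 8.43 to 10.6 CPM in CVP knock-out libraries, against 10.03 and 10.8 CPM in CVP wild type, and 10.6 to 13.6 CPM in FoP knock-out libraries, against 10.7 and 14.0 CPM in FoP wild type. The groups overlapped in both lines (-0.14 ± 0.14, adjusted p = 0.443 in CVP; -0.06 ± 0.14, adjusted p = 0.776 in FoP). Bmp4 (chr14:46383520-46390669, minus strand, GRCm38), a ligand of papilla and gland development, was close to the limit of detection. Its counts were 18, 37, 10 and 15 in the CVP knock-out libraries, against 53 and 32 in CVP wild type, and 0 and 0 in FoP clone 2.4 with 26 and 2 in clone 2.5, against 36 and 53 in FoP wild type. All FoP knock-out libraries were below both wild-type libraries, yet the adjusted p was 0.101 in FoP and 0.485 in CVP. Without FoP clone 2.5 duplicate 1 the FoP effect was called (adjusted p = 0.00106, range 0.00106 to 0.434 over 17 alternatives), as was the difference between lines (adjusted p = 0.0210, range 0.0109 to 0.836 over 24 alternatives). The 2 libraries of clone 2.4 at 0 allow up to 3 counts each, and a fitted fold against them depends on the prior count, so none is given as a size.

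Fst, the follistatin gene (chr13:114452290-114458951, minus strand, GRCm38), was the 1 gene of the 10 called higher in both lines. CVP knock-out libraries held 78.4 and 80.7 CPM in clone 2.9 and 104 and 102 CPM in clone 2.10, against 35.8 and 31.9 CPM in CVP wild type. FoP knock-out libraries held 54.6 and 54.9 CPM in clone 2.4 and 67.2 and 68.8 CPM in clone 2.5, against 40.4 and 39.6 CPM in FoP wild type. Duplicates agreed closely, the clones of a line stood apart from each other, and every knock-out library was above both wild-type libraries. The log2 fold change was 1.43 ± 0.15 in CVP (adjusted p = 2.30e-05), which held in 18 of 18 alternatives, and 0.62 ± 0.14 in FoP (adjusted p = 0.00728). The FoP call was lost without FoP wild-type duplicate 1 (adjusted p = 0.0544) or 2 (0.0629), with a range of 7.41e-07 to 0.200 over 18 alternatives. The effect in FoP minus that in CVP was -0.81 ± 0.19 (adjusted p = 0.0181); that call was lost without CVP wild-type duplicate 1 (0.0516) or 2 (0.0810) and without FoP wild-type duplicate 1 (0.0690) or 2 (0.0617), with a range of 5.58e-06 to 0.328 over 25 alternatives. The part of the fibroblast list in the Fst values was not tested. Its sum, mostly Vim and Fbn1, was higher in every CVP knock-out library, with Dcn called lower there. In FoP the sums of the genotypes overlapped, with Fbn1 and Pdgfra called higher and Dcn lower.

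Of the Id genes, Id1 and Id3 fell in FoP knock-out organoids and Id2 rose in CVP knock-out organoids. Id1 (chr2:152736251-152737410, plus strand, 1 exon, GRCm38), among the strongest known BMP targets, held 1.85 and 1.95 CPM in FoP clone 2.4 and 1.11 and 1.49 CPM in clone 2.5, against 7.80 and 9.20 CPM in FoP wild type. In CVP it held 2.65 and 3.34 CPM in clone 2.9 and 4.53 and 2.61 CPM in clone 2.10, against 4.98 and 4.79 CPM in CVP wild type. All knock-out libraries were below both wild-type libraries of their line, with a wide gap in FoP and a narrow one in CVP, where clone 2.10 duplicate 1 came closest. The log2 fold change in FoP was -2.41 ± 0.24 (adjusted p = 2.64e-05), called in 18 of 18 alternatives, and in CVP -0.57 ± 0.25 (adjusted p = 0.0738). Without CVP clone 2.10 duplicate 1 the CVP effect was -0.77 and called (adjusted p = 0.0145, range 0.0145 to 0.239 over 18 alternatives). The effect in FoP minus that in CVP was -1.83 ± 0.36 (adjusted p = 0.00590), which held in 24 of 25 alternatives and was lost with duplicates summed per culture (adjusted p = 0.206, range 1.51e-05 to 0.206).

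Id3 (chr4:136143497-136145755, plus strand, GRCm38), which is often regulated together with Id1, was low. Its counts in FoP knock-out libraries were 46 and 16 in clone 2.4 and 18 and 35 in clone 2.5, against 75 and 80 in FoP wild type, or 0.699, 0.248, 0.286 and 0.607 CPM in the knock-out libraries, against 1.09 and 1.29 CPM in wild type. CVP knock-out libraries held 0.962 and 1.14 CPM in clone 2.9 and 0.587 and 0.990 CPM in clone 2.10, against 1.55 and 1.80 CPM in CVP wild type. Every knock-out library was again below both wild-type libraries of its line. The log2 fold change was -1.37 ± 0.40 (adjusted p = 0.0201) in FoP and -0.87 ± 0.39 (adjusted p = 0.0836) in CVP, and the difference between lines was within its error (-0.50 ± 0.57, adjusted p = 0.602). The FoP call was lost without FoP wild-type duplicate 1 (adjusted p = 0.0687) or 2 (0.128), with a range of 0.00574 to 0.128 over 18 alternatives.

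Id2 (chr12:25093799-25097140, minus strand, GRCm38), which also answers to signals other than BMP in many cells, was higher in knock-out libraries. CVP knock-out libraries held 51.9 and 53.5 CPM in clone 2.9 and 75.2 and 66.5 CPM in clone 2.10, against 39.0 and 40.2 CPM in CVP wild type. FoP knock-out libraries held 33.4 and 37.1 CPM in clone 2.4 and 39.1 and 44.2 CPM in clone 2.5, against 28.1 and 30.1 CPM in FoP wild type. No knock-out library reached down to the wild-type libraries of its line. The log2 fold change was 0.64 ± 0.15 (adjusted p = 0.00473) in CVP and 0.40 ± 0.15 (adjusted p = 0.0654) in FoP, where it was called without clone 2.4 duplicate 1 (adjusted p = 0.0420, range 4.41e-04 to 0.354 over 18 alternatives). The difference between lines was within its error (-0.24 ± 0.21, adjusted p = 0.489).

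As shares of the 3 Id transcripts per exon length, Id1 was lower and Id2 higher in every knock-out library than in the wild-type libraries of its line. Id1 made up 8.04 ± 2.33% of the summed CPM per kb in FoP knock-out organoids (SD, n = 4), against 36.7 ± 1.49% in FoP wild type (n = 2), and 9.85 ± 1.78% in CVP knock-out organoids, against 19.7 ± 0.850% in CVP wild type. Id2 made up 90.5 ± 2.70% in FoP knock-out organoids, against 59.9 ± 1.65% in FoP wild type, and 88.3 ± 1.85% in CVP knock-out organoids, against 75.9 ± 0.454% in CVP wild type. The wild-type lines stood further apart in these shares than the knock-out lines did. Id3 stayed under 5% in all libraries.

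**Figure D3:**
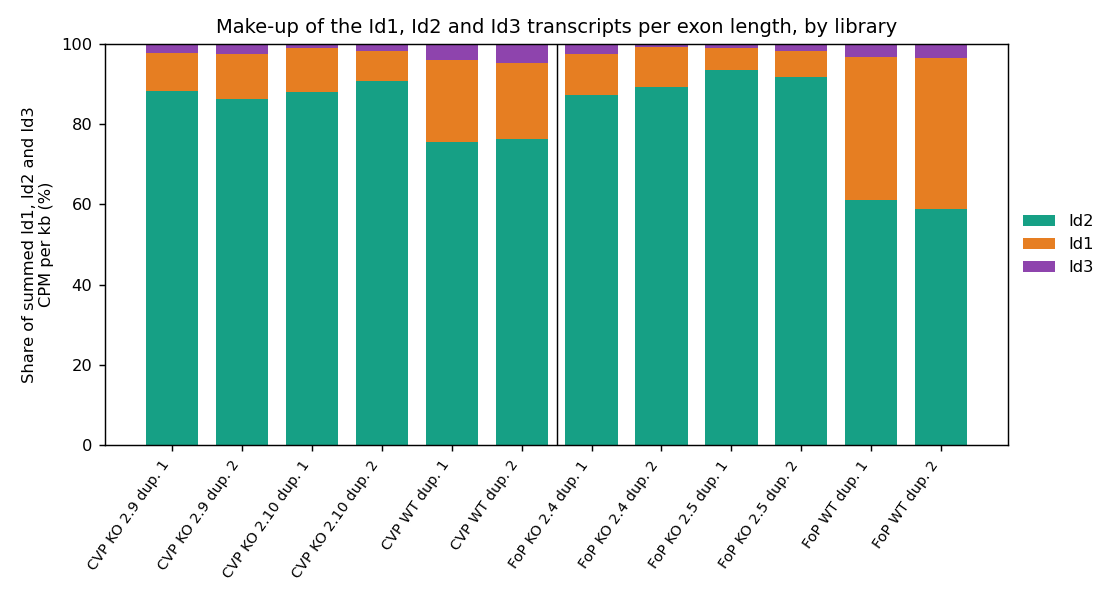
Share of Id2, Id1 and Id3 in their summed CPM per kb of exon (%), as stacked bars for each of the 12 libraries, with CVP libraries left of the vertical line, FoP libraries right of it, and knock-out clones left of wild type in each. The Id1 share is 5.59 to 10.2% in FoP knock-out libraries, against 35.7 and 37.8% in FoP wild type.

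Id2 and Id3 had a RefSeq promoter window. The stretches with the Smad motifs are shown because Id2 was called higher, in CVP only, and Id3 lower, in FoP only. On GRCm38.p6, 5′ to 3′, with the motif in capitals, they are 89 bases of the Id2 window (chr12:25096254-25096342, minus strand) and 30 bases around each match of Id3 (chr4:136143643-136143672 and chr4:136143742-136143771, plus strand). By GENCODE M21, whose genes start further upstream than the RefSeq start sites used here, the Id2 stretch lies within the gene between annotated exons, and the whole Id3 window lies within an annotated Id3 exon.
Id2 stretch: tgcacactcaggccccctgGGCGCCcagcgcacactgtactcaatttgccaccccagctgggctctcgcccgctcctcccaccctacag
Id3 site 1: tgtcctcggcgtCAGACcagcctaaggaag
Id3 site 2: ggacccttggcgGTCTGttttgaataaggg
Id2 held GGCGCC at 231 bases before its RefSeq start site and no CAGAC, besides CCAAT matches at 159, 120 and 76 bases. Id3 held CAGAC at 167 bases on the gene's strand and at 68 bases on the other strand, where it reads GTCTG, and no GGCGCC; both matches are exonic in GENCODE M21.

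A related gene, Id4, was not among the 10 but had the highest level of the Id genes. It averaged 709 ± 33.2 CPM in CVP knock-out organoids, against 386 ± 49.2 CPM in CVP wild type, and 873 ± 104 CPM in FoP knock-out organoids, against 329 ± 18.0 CPM in FoP wild type. Per exon length it made up 86.6 ± 1.85% of the summed Id1 to Id4 level in CVP knock-out organoids, against 82.3 ± 1.63% in CVP wild type, and 92.8 ± 1.06% in FoP knock-out organoids, against 81.1 ± 0.331% in FoP wild type. Id4 rose in both lines, by 0.88 ± 0.11 in CVP (adjusted p = 3.27e-05) and by 1.41 ± 0.11 in FoP (adjusted p = 4.68e-06) on the log2 scale, both called in 18 of 18 alternatives. The difference of 0.53 ± 0.14 (adjusted p = 0.0271) was lost in 8 of 25 alternatives, among them the omission of CVP wild-type duplicate 2 (0.139) and of FoP wild-type duplicate 1 (0.125) or 2 (0.0665), with a range of 0.00300 to 0.230.

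Comparing the lines directly, 3 of the 10 genes had an effect of knock-out that differed between FoP and CVP (Tgfb1 higher, Fst and Id1 lower in FoP), against 15.8% of all tested genes. Without any 1 of the 4 wild-type libraries, 1 of the 10 was called for this difference, and the calls over all genes were 1103 without CVP wild-type duplicate 1, 1532 without CVP duplicate 2, 1188 without FoP duplicate 1 and 1240 without FoP duplicate 2, against 2692 with all. Between wild types, FoP against CVP, edgeR's quasi-likelihood test called 0 of the 10 genes, against 6.68% of all tested genes. Bmp7 (-0.22 ± 0.06, adjusted p = 0.0626), Id1 (0.80 ± 0.29, adjusted p = 0.115) and Id2 (-0.45 ± 0.17, adjusted p = 0.145) had an unadjusted p under 0.05 there, and the same 3 were called by DESeq2; limma voom called 0. Over all genes, 1140 were called between wild types, and 101 to 156 with 1 wild-type library left out. The higher Id1 of FoP wild type, at 7.80 and 9.20 CPM, against 4.98 and 4.79 CPM in CVP wild type, also enters the difference between the effects on Id1, since the comparisons share these libraries.

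The knock-out clones of a line also differed. In CVP, clone 2.10 was above clone 2.9 for Fst (0.37 ± 0.06, adjusted p = 0.00114), Id2 (0.43 ± 0.08, adjusted p = 0.00392) and Tgfb3 (0.36 ± 0.07, adjusted p = 0.00619), 3 of the 10 genes against 5.42% of all tested genes. The Tgfb3 call was lost without clone 2.9 duplicate 1 (adjusted p = 0.0702, range 9.13e-08 to 0.0702 over 10 alternatives). In FoP, clone 2.5 was above clone 2.4 for Fst (0.31 ± 0.06, adjusted p = 0.00459) and Bmp4 (adjusted p = 0.0353) and below it for Tgfb3 (-0.26 ± 0.07, adjusted p = 0.0399), 3 of the 10 against 7.26% of all tested genes. Tgfb3 was lost without clone 2.4 duplicate 1 (0.372) and without clone 2.5 duplicate 1 (0.0811) or 2 (0.280), with a range of 0.00100 to 0.372 over 10 alternatives. Fst was lost without clone 2.5 duplicate 2 (0.0512, range 1.28e-04 to 0.0512 over 10 alternatives), and Bmp4, which rests on the 26 counts of clone 2.5 duplicate 1, was lost without that library (0.327) and without clone 2.4 duplicate 1 (0.170) or 2 (0.153), with a range of 4.69e-05 to 0.327 over 9 alternatives.

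The rest of the pathway was taken from a list of 86 genes by role, of which 66 were tested. In CVP 19 were higher and 24 lower, with a median log2 fold change of -0.08, beside 23.5% higher and 22.9% lower among all tested genes. In FoP 18 were higher and 13 lower, with a median of 0.10, beside 13.5% higher and 15.3% lower among all tested genes. Among the 9 other ligands tested, 1 was higher and 3 lower in CVP, and 2 were higher and 3 lower in FoP, beside the same shares of all genes. Inhbb, the subunit of activin B, which follistatin binds, averaged 390 ± 47.9 CPM in CVP knock-out organoids, against 165 ± 5.41 CPM in CVP wild type (1.24 ± 0.09, adjusted p = 1.32e-06). It averaged 310 ± 12.9 CPM in FoP knock-out organoids, against 149 ± 0.531 CPM in FoP wild type (1.05 ± 0.09, adjusted p = 9.38e-06). Inhba, the subunit of activin A, went the other way. In CVP it averaged 170 ± 14.6 CPM in knock-out organoids, against 206 ± 8.73 CPM in wild type (-0.28 ± 0.07, adjusted p = 0.00578). In FoP it averaged 165 ± 6.56 CPM in knock-out organoids, against 235 ± 11.8 CPM in wild type. The FoP knock-out libraries spanned 157 to 172 CPM for Inhba, and the FoP wild-type libraries 227 to 243 CPM. Gdf15, a stress-induced member of the family, fell in both lines. It averaged 2.18 ± 0.363 CPM in CVP knock-out organoids, against 7.37 ± 1.45 CPM in CVP wild type (-1.76 ± 0.32, adjusted p = 9.50e-04), and 2.25 ± 1.06 CPM in FoP knock-out organoids, against 17.9 ± 1.05 CPM in FoP wild type (-2.99 ± 0.32, adjusted p = 6.90e-05). Lefty1, an inhibitor of Nodal, fell in CVP (-0.73 ± 0.17, adjusted p = 0.00393). In FoP, Gdf5, a ligand of joint formation, fell (-1.97 ± 0.47, adjusted p = 0.00884) and Gdf11, a relative of myostatin, rose (0.50 ± 0.15, adjusted p = 0.0290). Gdf5 was lost without FoP wild-type duplicate 1 (adjusted p = 0.0636, range 5.33e-07 to 0.222 over 18 alternatives), and Gdf11 without FoP wild-type duplicate 1 (0.0692) or 2 (0.227) or FoP clone 2.4 duplicate 1 (0.0626), with a range of 0.00895 to 0.227.

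Of 12 receptors tested, 3 were higher and 5 lower in CVP (all genes 23.5% and 22.9%), and 5 were higher and 1 lower in FoP (all genes 13.5% and 15.3%). Tgfbr2, the type II receptor for TGF-beta, rose in CVP (0.63 ± 0.09, adjusted p = 1.65e-04) and in FoP (0.43 ± 0.09, adjusted p = 0.00438). Tgfbr3, the co-receptor betaglycan, fell in CVP and rose in FoP. It averaged 14.0 ± 3.23 CPM in CVP knock-out organoids, against 28.2 ± 2.48 CPM in CVP wild type (-1.01 ± 0.16, adjusted p = 4.03e-04). In the other line it averaged 26.4 ± 3.12 CPM in FoP knock-out organoids, against 14.0 ± 0.226 CPM in FoP wild type (0.92 ± 0.18, adjusted p = 0.00255). The difference was 1.93 ± 0.24 (adjusted p = 0.00108) and was lost only with duplicates summed per culture (adjusted p = 0.174, range 4.36e-13 to 0.174 over 25 alternatives). Acvr2b, a type II receptor for activins, fell in CVP (-1.19 ± 0.14, adjusted p = 3.42e-05) and in FoP (-0.51 ± 0.15, adjusted p = 0.0190). Acvr1, a type I receptor for BMPs, rose in CVP (0.13 ± 0.05, adjusted p = 0.0428), a call kept in 5 of 18 alternatives, and in FoP (0.18 ± 0.05, adjusted p = 0.0137). Its FoP call was lost without wild-type duplicate 1 (0.0809) or 2 (0.0991), with a range of 0.00323 to 0.177. Without FoP wild-type duplicate 1 or 2, Acvr2b was not called in FoP (adjusted p = 0.122 and 0.0857, range 0.00393 to 0.215), and without FoP wild-type duplicate 1 neither was Tgfbr2 (0.0561, range 1.21e-05 to 0.167). Acvr1 in CVP was lost without CVP wild-type duplicate 1 (0.143) or 2 (0.167), clone 2.9 duplicate 1 (0.0833) or clone 2.10 duplicate 1 (0.0941), with a range of 0.0260 to 0.204.

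Of the 7 Smads tested, 5 were called lower in CVP (all genes 22.9%) and 2 in FoP (all genes 15.3%), and the others did not pass the test. In CVP, Smad3, which carries TGF-beta and activin signals, fell by 0.48 ± 0.05 on the log2 scale (adjusted p = 8.07e-06) and the inhibitory Smad6 fell by 0.47 ± 0.11 (adjusted p = 0.00268). Smad1, which carries BMP signals, fell by 0.47 ± 0.07 in CVP (adjusted p = 9.99e-05) and was not called in FoP. The shared partner Smad4 fell in both lines, by 0.43 ± 0.06 in CVP (adjusted p = 5.59e-05) and by 0.34 ± 0.06 in FoP (adjusted p = 7.38e-04). Smad2, which acts beside Smad3, fell by 0.14 ± 0.05 in CVP (adjusted p = 0.0362) and by 0.14 ± 0.05 in FoP (adjusted p = 0.0444). Smad2 in CVP was called in 8 of 18 alternatives and was lost without clone 2.9 duplicate 2 (0.0750), clone 2.10 duplicate 2 (0.0753) or wild-type duplicate 1 (0.0770) or 2 (0.218), with a range of 0.0186 to 0.218. Smad2 in FoP was called in 5 of 18 alternatives and was lost without FoP clone 2.4 duplicate 1 (0.109) or 2 (0.0681), clone 2.5 duplicate 1 (0.0582) or wild-type duplicate 1 (0.0620) or 2 (0.351), with a range of 0.0303 to 0.351. The Smad3 effect differed between lines by 0.50 ± 0.07 (adjusted p = 0.00110), and was lost with duplicates summed (adjusted p = 0.184, range 7.11e-10 to 0.184 over 25 alternatives).

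Antagonists and latency proteins, which hold ligands inactive or release them, gave 10 higher and 7 lower of 25 in CVP (all genes 23.5% and 22.9%), and 7 higher and 1 lower in FoP (all genes 13.5% and 15.3%). In CVP, Fstl1, a secreted relative of follistatin, averaged 512 ± 84.4 CPM in knock-out organoids, against 121 ± 1.56 CPM in wild type (2.08 ± 0.15, adjusted p = 2.16e-06). Ltbp1, which anchors latent TGF-beta in the matrix, averaged 217 ± 51.5 CPM in CVP knock-out organoids, against 65.0 ± 0.287 CPM in CVP wild type (1.74 ± 0.37, adjusted p = 0.00461). Ltbp2, a matrix protein of the same family, fell to 24.2 ± 3.83 CPM in CVP knock-out organoids, against 134 ± 22.8 CPM in wild type (-2.47 ± 0.29, adjusted p = 1.50e-04). Nbl1, a secreted BMP antagonist, fell to 368 ± 87.3 CPM in CVP knock-out organoids, against 880 ± 107 CPM in wild type (-1.26 ± 0.18, adjusted p = 2.64e-04). The summed fibroblast list, mostly Vim and Fbn1, was higher in CVP knock-out libraries, and its part in these 4 was not tested. Fstl1 also rose in FoP and averaged 372 ± 42.7 CPM in knock-out organoids, against 200 ± 5.92 CPM in wild type (0.89 ± 0.14, adjusted p = 7.38e-04). In FoP, Lrrc32, which docks latent TGF-beta on the cell surface, averaged 168 ± 11.9 CPM in knock-out organoids, against 50.6 ± 3.20 CPM in wild type (1.73 ± 0.13, adjusted p = 8.27e-06). Thbs1, which can activate latent TGF-beta, averaged 2170 ± 162 CPM in FoP knock-out organoids, against 1052 ± 38.3 CPM in FoP wild type (1.04 ± 0.11, adjusted p = 3.82e-05). Both were also called higher in CVP, Lrrc32 by 1.57 ± 0.13 (adjusted p = 4.61e-06) and Thbs1 by 1.57 ± 0.12 (adjusted p = 1.16e-06). Smurf1, a ubiquitin ligase for Smads and receptors, fell in FoP (-0.24 ± 0.06, adjusted p = 0.0124) and was lost without FoP wild-type duplicate 1 (adjusted p = 0.137, range 0.00133 to 0.185 over 18 alternatives). In CVP it also fell (-0.16 ± 0.06, adjusted p = 0.0464), a call kept in 7 of 18 alternatives and lost without clone 2.10 duplicate 1 (0.0948) or 2 (0.102) or wild-type duplicate 1 (0.275) or 2 (0.0804), with a range of 0.00767 to 0.275.

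Of 13 other targets tested, 5 were higher and 4 lower in CVP (all genes 23.5% and 22.9%), and 4 were higher and 6 lower in FoP (all genes 13.5% and 15.3%). Besides Id4, Ccn2, a matrix-associated target of TGF-beta and of YAP, rose in CVP (0.76 ± 0.23, adjusted p = 0.0225) and in FoP (1.20 ± 0.24, adjusted p = 0.00444). Tgfbi, a secreted matrix protein, averaged 48.0 ± 4.95 CPM in CVP knock-out organoids, against 86.3 ± 0.0728 CPM in wild type (-0.85 ± 0.10, adjusted p = 2.96e-05). It was also called lower in FoP (-0.40 ± 0.10, adjusted p = 0.00893). In FoP, Mmp9, a gelatinase, fell (-2.60 ± 0.60, adjusted p = 0.00896), as did Hey1, a target shared by Notch and BMP (-2.08 ± 0.44, adjusted p = 0.00603). Without FoP wild-type duplicate 2, Mmp9 (adjusted p = 0.0731, range 3.82e-04 to 0.133) and Hey1 (0.0754, range 1.83e-04 to 0.131) were not called, and Tgfbi in FoP was not either (0.0975, range 0.00117 to 0.0975). Without CVP wild-type duplicate 1 or 2, Ccn2 in CVP was not called (0.109 and 0.104, range 3.74e-04 to 0.109).

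**Figure D4:**
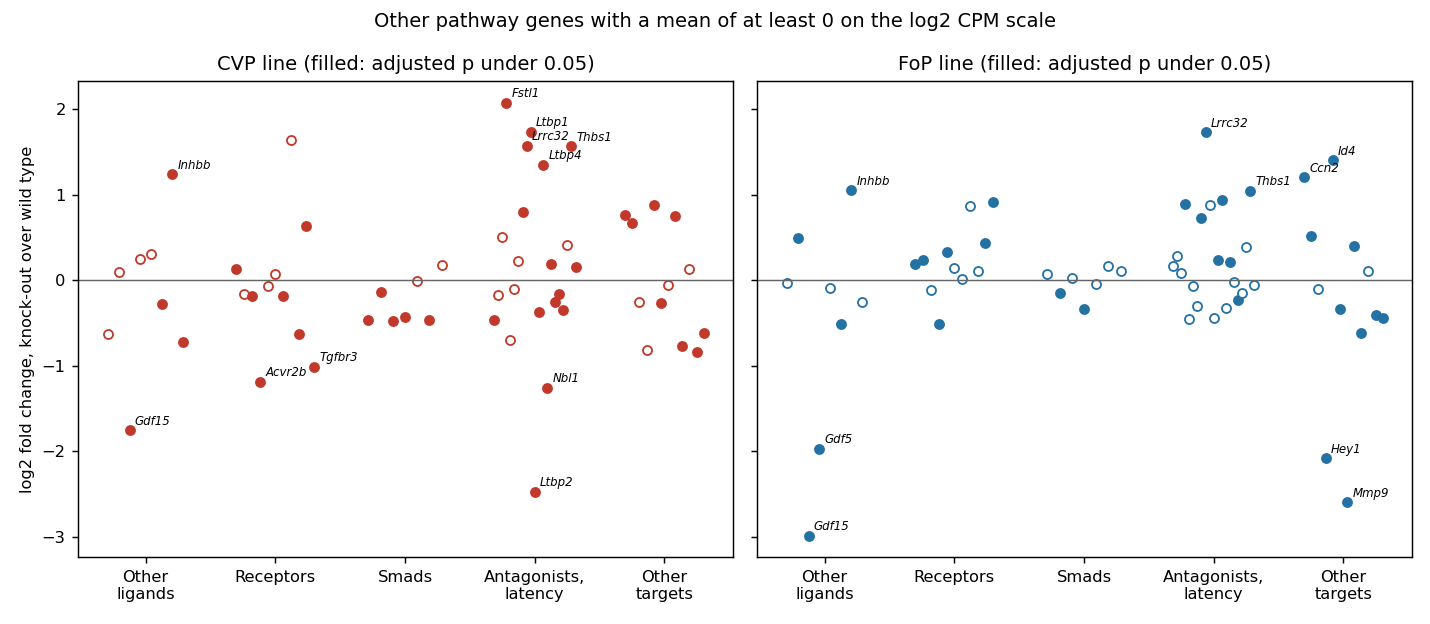
Log2 fold change, knock-out over wild type, of pathway genes outside the 10, by role, where the mean log2 CPM is 0 or more, in the CVP line (left) and the FoP line (right); filled points passed an adjusted p of 0.05, and called genes beyond 1 are named. No Smad is filled above 0, Inhbb is up and Gdf15 down in both lines.

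To describe patterns like those of the members, the 3 genes with the highest Pearson correlation of log2 CPM over the 12 libraries were taken for the Id genes and for Bmp7; duplicates of a culture are not independent, and no test is attached. For Id1 they were Rbm15 (r = 0.97, rho = 0.97), Lipg (0.94, 0.96) and Yrdc (0.94, 0.94). For Id2 they were Lipt2 (r = 0.98, rho = 0.91), Pcdhb22 (0.97, 0.96) and Cthrc1 (0.97, 0.97), and for Id3 Map10 (0.93, 0.88), Stoml2 (0.90, 0.97) and Gprc5c (0.87, 0.92). For Bmp7 they were Pkig (r = 0.94, rho = 0.86), Trim46 (0.91, 0.80) and Ten1 (0.91, 0.94). No gene was shared between these 4 sets.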

How the data were processed

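RNA of 12 mouse organoid libraries was prepared with a Qiagen kit and made into stranded poly(A) libraries with TruSeq, per the labels' protocols. The authors deposited 1 table of raw counts per gene. Per the submitters' processing notes, STAR, featureCounts and hg38 were used, with no versions; the table has mouse symbols, and 96.1% of 55367 match exactly 1 gene of GENCODE M21 (GRCm38), which gave positions and exon lengths. The sources used here do not give the strand setting. Tgfb2, Tgfb3, Bmp4 and Fst overlap antisense genes that hold at most 40 counts in all. Low counts of 2 (20289 cells) outnumber those of 1 (20007), and 4 (10030) those of 3 (6626). Counting each mate of a read pair would give such an excess; halved counts were therefore an alternative.

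Columns were matched to samples by title. Counts were filtered with filterByExpr, scaled by TMM and fitted with edgeR 4.0.16 (robust quasi-likelihood, R 4.3.3) over 4 arms, or 6 groups for clone against clone, with Benjamini-Hochberg adjustment over 17076 genes. The SE is the log2 fold change over the root of F, an approximation. CPM per kb divides CPM by the length of the merged exons. The fit over 4 arms was tested on simulated counts of independent libraries with no effect of clone or culture. That test cannot show how the p-values behave where duplicates share a culture.

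The 10 genes, the pathway and marker lists and the alternatives were chosen with earlier results of these data known. All 10 are described. Named besides are, per role and line, up to 2 called genes in each direction. They have the largest change among called genes with a mean log2 CPM of 0 or more. For some of these the other line's values are added, and Inhba, Tgfbr1 and Smad1 are given outside this rule. A gene that the rule names is not reported here. Alternatives were summed duplicates, halved counts, a fit for each line alone, all 6 groups, a block for the replicate number, no filter or a stricter one (1 CPM in 4 libraries), DESeq2 1.42.0 (size factors, Wald test), limma 3.58.1 (voom, blocking on culture), and omission of each library or clone. Duplicate numbers did not pair cultures, and duplicates differed by more than sampling noise (chi-square of 8.18 to 40.8 per gene). A lone wild-type library is assumed to vary like the other groups.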

Additional observations from a re-analysis of the deposited data

Results flagged for a closer look

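In FoP knock-out organoids, Bmp4 in clone 2.5 duplicate 1 stood at 0.413 CPM, apart from the other 3 knock-out libraries at 0 to 0.0347 CPM. Chance flags about 1 in 20 groups in this way. The effect of knock-out differed between FoP and CVP for 3 genes by the test of the difference in edgeR's quasi-likelihood fit: by 0.33 on the log2 scale for Tgfb1 (adjusted p = 0.0496), by -0.81 for Fst (adjusted p = 0.0181) and by -1.83 for Id1 (adjusted p = 0.00590).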

How the results depend on the processing

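Of 933 values of the 10 genes under alternatives, 815 kept their direction and their side of the threshold, 55 lost a call, 39 gained one and 24 turned direction, none of which was called. For the pathway genes named by the rule, 832 of 981 kept both and 149 lost the call. The cause of these changes was not tested. Summing duplicates also leaves fewer samples.

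With duplicates summed per culture, the genes of the 10 called were 1 in CVP, 1 in FoP and 0 for the difference between lines; over all genes they were 3420, 372, 0 for the difference and 0 between wild types. With 6 groups the counts were 7 in FoP, 5 for the difference (4424 genes) and 5 between wild types (2788 genes). Between wild types, 1 of the 10 was called with no filter, with the stricter filter and with halved counts, and 3 by DESeq2 (2030 genes); limma voom called 512 genes there and 1457 for the difference. With no filter, 1494 genes were called between CVP clones and 1913 between FoP clones.

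With 1 library left out, the called number of the 10 was 1 to 5 in FoP, 1 to 3 for the difference and 1 to 2 between FoP clones. Over all genes it was 5238 to 7692 in CVP, 2668 to 4683 in FoP, 1103 to 2903 for the difference, 101 to 156 between wild types, 549 to 1026 between CVP clones and 509 to 648 between FoP clones.

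Log2 values that turned direction were Bmp7 in CVP (-0.0025 with DESeq2 size factors and in the DESeq2 test, -0.00096 without clone 2.10), Tgfb3 in FoP (0.0063 without clone 2.5), and the difference between lines for Tgfb2 (-0.24 without clone 2.4) and Bmp2 (-0.0302 without clone 2.9). With 1 library left out, the ranges that cross 0 were -0.0103 to 0.0270 for Bmp7 in CVP and -0.24 to 0.14 for Bmp2 in FoP. For the difference they were -0.0172 to 0.23 for Tgfb2 and -0.10 to 0.28 for Bmp2, and between wild types -0.22 to 0.63 for Bmp4. Between CVP clones they were -0.41 to 0.37 for Tgfb2 and -0.20 to 0.60 for Id1, and between FoP clones -0.10 to 0.14 for Tgfb1, -0.13 to 0.23 for Bmp2 and -0.73 to 0.84 for Id3.

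The replicate numbers do not pair the cultures (correlations of -0.056 to 0.114 over 15 pairs of cultures, 1 of them above 0.1). With the replicate block, 4 of the 10 were called in CVP, 3 in FoP and 2 for the difference. Bmp4 and Id3 are limited by depth, at 0 to 53 counts for Bmp4 and 16 to 130 for Id3 per library.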
